A study of Mus musculus with 6 samples.

Results

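Costimulatory and activation surface genes were followed in transduced mouse B cells, a set of 10 genes chosen by name. They were chosen with earlier results of these data known, so the shares of them called below are descriptions and no test of the set. The genes are Cd40, Cd80, Cd86, Cd69, Cd83, Cd44, Slamf1, Icosl, Cd274 and Pdcd1lg2. Rows of the deposited expression table were taken when the platform annotation gave exactly 1 of these symbols, which found all 10 genes on 11 features, with Cd80 on a pair of features. They stand among 21542 features and 19818 genes with exactly 1 symbol. Mature splenic B cells were activated and then infected with retrovirus. They had 36 hours more of mitogen, then a wash and 24 hours of culture in its absence, and EGFP-positive cells were sorted. The growth protocol names anti-CD40 as the agent left out in that last culture. Controls received the GFP vector alone (EV). The IKK_K171E group received IKK carrying K171E, and the MYD88_L265P group received MYD88 carrying L265P. RNA of each group was read on 2 Affymetrix mouse ST 1.0 arrays, which the submitters call biological replicates. All 6 arrays therefore came from activated, infected and sorted cells. The IKK subunit is not named in the labels, and the strain, age and sex of the mice and the promoter of the vector are not given in the sources used here.

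B cells present antigen to helper T cells and exchange signals with them through surface proteins. CD40, a receptor of the tumour necrosis factor family, is engaged by its ligand on T cells and acts through TRAF adaptors and NF-kB; CD80 and CD86 are the B7 ligands of CD28 and CTLA4, and ICOSL is the ligand of ICOS. CD274 (PD-L1) and PDCD1LG2 (PD-L2) bind the inhibitory receptor PD-1, CD83 stabilises MHC class II and CD86 at the surface, SLAMF1 is its own ligand, CD44 binds hyaluronan, and CD69 is an early activation lectin that holds S1PR1 inside the cell. MYD88 is the adaptor of Toll-like and interleukin-1 receptors, and the IKK kinases release NF-kB from its inhibitors.

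RefSeq promoter windows on mouse build GRCm38.p6 were matched for 6 of the 10 genes, Cd80, Cd44, Slamf1, Icosl, Cd274 and Pdcd1lg2, and not for Cd40, Cd86, Cd69 and Cd83. The 250 bases before the RefSeq start are printed for Slamf1 (chr1:171766882-171767131, plus strand) and Icosl (chr10:78069118-78069367, plus strand), which fell together in MYD88_L265P, and for Cd44 (chr2:102901666-102901915, minus strand), which rose there. Pdcd1lg2 (chr19:29410669-29410918, plus strand) is added because, with Icosl, it held the NF-kB consensus motif, shown in capitals. The motif was searched on both strands. It was found on the minus strand in Icosl, with its first printed base at -111 relative to the start, and in Pdcd1lg2 at -244, where the same bases match on both strands. Of 32851 RefSeq windows of this length, 7.25% held the motif, and 2 of the 6 matched genes did. A match describes these letters only.
Slamf1: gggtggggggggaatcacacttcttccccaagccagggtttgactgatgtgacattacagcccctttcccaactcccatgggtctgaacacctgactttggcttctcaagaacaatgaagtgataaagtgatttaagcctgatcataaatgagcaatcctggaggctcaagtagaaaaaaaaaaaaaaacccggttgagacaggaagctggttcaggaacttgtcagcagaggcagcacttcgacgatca
Icosl: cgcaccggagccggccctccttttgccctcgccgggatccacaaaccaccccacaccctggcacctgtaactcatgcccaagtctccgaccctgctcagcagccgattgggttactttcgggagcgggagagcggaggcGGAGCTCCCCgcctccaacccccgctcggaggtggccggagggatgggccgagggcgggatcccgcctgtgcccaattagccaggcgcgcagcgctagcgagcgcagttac
Cd44: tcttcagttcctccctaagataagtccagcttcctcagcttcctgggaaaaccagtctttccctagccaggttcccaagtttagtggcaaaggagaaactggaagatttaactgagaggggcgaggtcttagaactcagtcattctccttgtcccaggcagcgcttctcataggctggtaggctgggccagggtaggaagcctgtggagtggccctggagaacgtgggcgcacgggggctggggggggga
Pdcd1lg2: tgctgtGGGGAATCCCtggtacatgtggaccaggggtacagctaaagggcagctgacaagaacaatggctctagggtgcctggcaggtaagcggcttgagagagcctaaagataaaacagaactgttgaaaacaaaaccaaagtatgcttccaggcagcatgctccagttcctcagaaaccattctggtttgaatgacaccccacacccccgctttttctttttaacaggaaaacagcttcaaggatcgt

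The values are log2 signals processed by the authors, so a step of 1 is a doubling, and features of different genes were not set against each other in level. Myd88 read 12.25 and 12.31 in MYD88_L265P and between 9.14 and 9.43 on the other arrays (log2 fold change against EV 2.96, limma adjusted p = 2.81e-04). Ikbkb, the gene of the IKK beta subunit, read 11.35 and 10.68 in IKK_K171E and between 9.68 and 10.22 elsewhere, a difference from EV of 0.91 that missed the threshold of an adjusted p below 0.05 (adjusted p = 0.0848). A gene is said to have risen, fallen or been called where it passed that threshold. B cell markers were bright in all groups: Ms4a1 (CD20) lay between 12.54 and 12.91 and Cd79b between 11.82 and 12.55. Of the 6 B cell markers tested, 3 fell in MYD88_L265P against EV (Cd79b, Cd22 and Blk), beside 7.33% of all features, and 1 in IKK_K171E against EV (Cd22), beside 0.413%. The 3 calls were lost without either MYD88_L265P array, and that of Cd22 in IKK_K171E in 5 of the 6 fits that left out an array. In bulk samples, fewer cells of a type and less RNA per cell cannot be told apart. P-values set group differences against the spread between arrays, pooled over the 3 groups, and the number of arrays limits the precision.

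**Figure D1:**
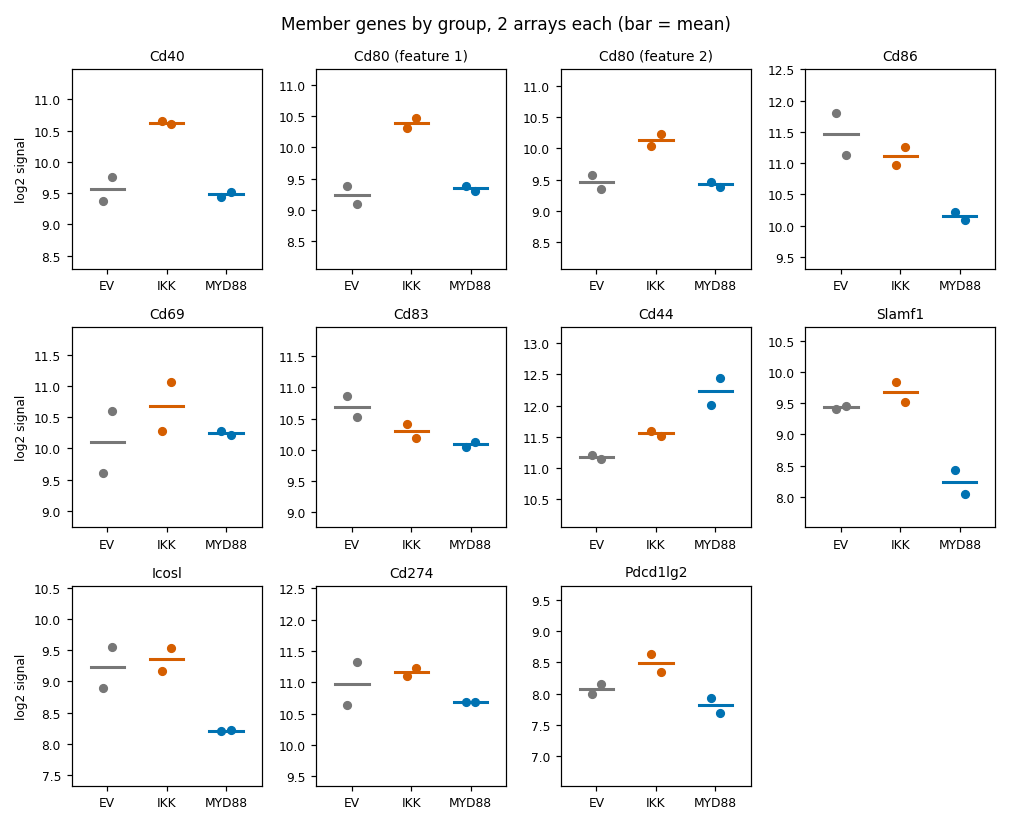
Log2 signal (vertical axis, a span of the same size in every panel) of the 11 features in EV, IKK_K171E and MYD88_L265P; points are the 2 arrays of a group and bars their mean. Cd40 and both Cd80 features are highest in IKK_K171E, at 10.05 or above, and Cd86, Slamf1 and Icosl are lowest in MYD88_L265P.

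In MYD88_L265P against EV, 4 of the 10 genes fell and 1 rose. Cd86, Slamf1, Icosl and Cd83 fell, by 1.32, 1.19, 1.01 and 0.60 on the log2 scale, and Cd44 rose by 1.05. Cd40, the receptor that anti-CD40 engages, and Cd80 had differences near 0. These 5 features are 45.5% of the 11, where limma with Benjamini-Hochberg adjustment over all tested features called 16.6% of them (9.32% higher and 7.33% lower). Their median log2 fold change was -0.26, against -0.11 over all features. Both MYD88_L265P arrays lay above both EV arrays on 1 feature and below on 5, where over all features 23.2% lay above, 47.9% below and 71.1% in either direction. Under quantile normalization and with a common array median the members again split into 1 higher and 4 lower. Over all features the share of calls that were higher moved from 56.0% to 77.4% with the common median, which brought the median feature to -0.03. Without MYD88_L265P replicate 1 the calls of Cd86 (adjusted p = 0.0655), Cd83 (0.143) and Icosl (0.118) ended. Without MYD88_L265P replicate 2 those of Cd86 (0.0854), Cd83 (0.123), Slamf1 (0.0527) and Icosl (0.121) did; Cd83 was also lost without EV replicate 1 (0.0725) and Icosl without EV replicate 2 (0.0591). Over all features the 3586 calls fell to 415 without MYD88_L265P replicate 1, 191 without MYD88_L265P replicate 2 and 1320 without EV replicate 2, so the losses were not limited to the members. With the replicate numbers of the titles as a block, Cd83 missed the threshold (adjusted p = 0.0778).

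In IKK_K171E against EV, Cd40 and Cd80 rose and none of the 10 genes fell. Cd40 rose by 1.06, and the Cd80 features by 1.15 and 0.67. The 3 features are 27.3% of the 11, beside 1.37% of all features called in this comparison (0.956% higher and 0.413% lower). The other 8 features missed the threshold, with adjusted p-values from 0.180 (Pdcd1lg2) to 0.817 (Icosl), and the members' median was 0.37, against -0.04 over all features. Of these 8, Pdcd1lg2 (log2 fold change 0.42), Cd44 (0.37) and Slamf1 (0.25) had both IKK_K171E arrays above both EV arrays, and Cd83 (-0.39) had both below; over all features the arrays did not overlap in 46% (17.6% higher and 28.4% lower). Without IKK_K171E replicate 1 limma called 0 of 21542 features, with 2355 at an unadjusted p under 0.05, among them 5 of the 11 member features; adjusted p was then 0.180 for Cd40 and 0.106 and 0.187 for the Cd80 features. Without either MYD88_L265P array, which serve here only to estimate the spread, Cd40 (0.0730) and the second Cd80 feature (0.111) missed the threshold. That feature also missed it without EV replicate 2, without IKK_K171E replicate 2 and under quantile normalization (limma adjusted p = 0.0575). It passed in 6 of the 10 alternatives other than the fits without 1 array.

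The direct comparison of MYD88_L265P with IKK_K171E tests whether the constructs differed from each other; comparisons with EV share its arrays and do not. Slamf1 was lower in MYD88_L265P by 1.44, Cd40 by 1.15 and Cd80 by 1.04 and 0.71. No member was called higher. The 4 features are 36.4% of the 11, where 1.75% of all features were called (0.873% higher and 0.877% lower). On 10 of the 11 features both MYD88_L265P arrays lay below both IKK_K171E arrays, and on Cd44 above; over all features 36.1% lay below and 20.9% above, 57% in all. Icosl (-1.14, SE 0.22, adjusted p = 0.0549), Pdcd1lg2 (-0.68, adjusted p = 0.0635), Cd44 (0.67, adjusted p = 0.0738) and Cd86 (-0.96, adjusted p = 0.0801) missed the threshold. So of the 5 genes called between MYD88_L265P and EV, Slamf1 was also called between the constructs, and Cd86, Icosl, Cd44 and Cd83 were not. With the replicate numbers as a block, Icosl passed (adjusted p = 0.0211). With the title numbers as a block Cd86 (0.00351), Icosl (0.00134), Cd44 (0.0220), Pdcd1lg2 (0.00719) and Cd274 (0.0333) passed in addition to the 4 features. Leaving out IKK_K171E replicate 1, IKK_K171E replicate 2 or MYD88_L265P replicate 2 left no member called. The members' median log2 fold change was then -0.82, -0.82 and -0.67, and that over all features -0.07, -0.04 and -0.04. Over all features the 377 calls became 42, 14 and 33 in those fits. Without MYD88_L265P replicate 1, Slamf1 was the 1 member that passed (adjusted p = 0.0207). Without either EV array, Cd86 (adjusted p = 0.0159) and Icosl (adjusted p = 0.0132) passed as well.

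**Figure D2:**
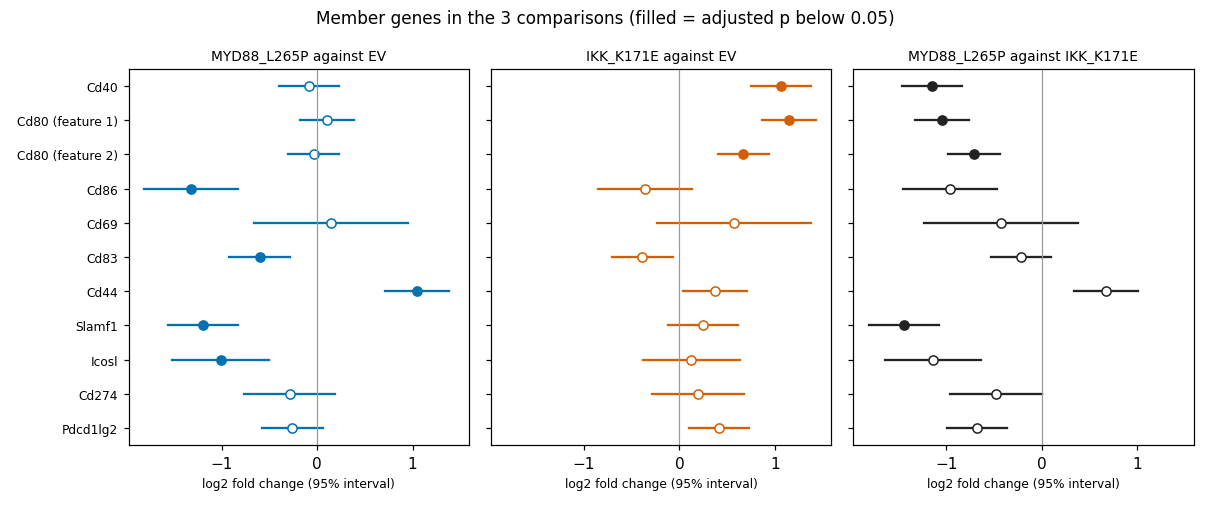
Log2 fold change (horizontal axis) with its 95% interval for the 11 features in the 3 comparisons; filled points have a limma adjusted p below 0.05. Calls lie on both sides of 0 in MYD88_L265P against EV (1 higher, 4 lower), above 0 in IKK_K171E against EV (3 features) and below 0 in the direct comparison (4 features).

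Cd40 encodes the receptor that receives T cell help. It read 9.36 and 9.76 in EV, 10.65 and 10.60 in IKK_K171E, and 9.44 and 9.52 in MYD88_L265P. Both IKK_K171E arrays stood above all others, and the MYD88_L265P arrays lay between the EV arrays. The rise over EV was 2.09-fold (log2 1.06, SE 0.13, limma adjusted p = 0.0244). In MYD88_L265P the difference from EV was -0.08, with a 95% interval from -0.40 to 0.23. Descending, the order was IKK_K171E, EV and MYD88_L265P, and the last pair did not differ beyond its spread.

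Cd80, the B7-1 ligand of CD28, was measured by 2 features that correlated at 0.989 over the 6 arrays, which share every library. On the first it read 9.38 and 9.10 in EV, 10.31 and 10.47 in IKK_K171E, and 9.39 and 9.30 in MYD88_L265P. On the second the values were 9.58 and 9.35, 10.05 and 10.22, and 9.47 and 9.39. On both, the IKK_K171E arrays were separate from all others while EV and MYD88_L265P overlapped. The rise over EV was 2.21-fold on the first (SE 0.12, limma adjusted p = 0.0151) and 1.59-fold on the second (SE 0.11, adjusted p = 0.0458). For MYD88_L265P against EV the 95% intervals ran from -0.18 to 0.38 and from -0.31 to 0.23.

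Cd86, the B7-2 ligand of the same receptors, had another order. It read 11.80 and 11.14 in EV, 10.97 and 11.25 in IKK_K171E, and 10.21 and 10.09 in MYD88_L265P. The MYD88_L265P arrays were the lowest, and EV and IKK_K171E overlapped. Cd86 fell 2.49-fold against EV (log2 -1.32, SE 0.21, limma adjusted p = 0.0113). In IKK_K171E its difference from EV was -0.36, with a 95% interval from -0.85 to 0.14, beside the rise of Cd80 on the same arrays. Whether the responses of the B7 genes differ from each other was not tested.

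Cd83 followed Cd86 in order with a smaller range. Its signals were 10.86 and 10.52 in EV, 10.41 and 10.20 in IKK_K171E, and 10.05 and 10.13 in MYD88_L265P. No arrays of different groups overlapped, with EV highest and MYD88_L265P lowest. The fall in MYD88_L265P was 1.52-fold (log2 -0.60, SE 0.14, limma adjusted p = 0.0282). The IKK_K171E value of -0.39 missed the threshold (adjusted p = 0.207), and MYD88_L265P and IKK_K171E differed by 0.21 with an interval that holds 0.

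Icosl, the ligand of the T cell receptor ICOS, read 8.90 and 9.55 in EV, 9.16 and 9.54 in IKK_K171E, and 8.20 and 8.22 in MYD88_L265P. The MYD88_L265P arrays nearly coincided below all others, and both IKK_K171E arrays lay between the EV arrays. Against EV it fell 2.02-fold (log2 -1.01, SE 0.22, limma adjusted p = 0.0245). In IKK_K171E the difference from EV was 0.13 (95% interval -0.38 to 0.63).

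The ligands of the inhibitory receptor PD-1 were called in no comparison. Cd274 read 10.63 and 11.32 in EV, 11.10 and 11.24 in IKK_K171E, and 10.69 and 10.69 in MYD88_L265P. Its EV arrays spanned the values of both other groups. The MYD88_L265P difference from EV was -0.29 (95% interval -0.77 to 0.19), and without EV replicate 1 it was -0.64 and passed (adjusted p = 0.0170). Pdcd1lg2 read 7.99 and 8.16 in EV, 8.63 and 8.35 in IKK_K171E, and 7.93 and 7.70 in MYD88_L265P. Its groups did not overlap, in the order IKK_K171E, EV and MYD88_L265P, and no neighbours in that order differed at the threshold (adjusted p = 0.180 and 0.191).

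Slamf1, a receptor that binds itself and signals through SH2 adaptors, read 9.41 and 9.45 in EV, 9.83 and 9.52 in IKK_K171E, and 8.43 and 8.04 in MYD88_L265P. It stood lower in MYD88_L265P than on every other array by more than the spread within any group. Slamf1 fell 2.29-fold against EV (log2 -1.19, SE 0.15, limma adjusted p = 0.00691) and was 2.71-fold lower than in IKK_K171E (adjusted p = 0.0121).

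Cd44, the hyaluronan receptor of activated lymphocytes, moved the other way. It read 11.21 and 11.15 in EV, 11.59 and 11.52 in IKK_K171E, and 12.01 and 12.44 in MYD88_L265P. The groups were separate, in ascending order EV, IKK_K171E and MYD88_L265P. Cd44 rose 2.06-fold in MYD88_L265P against EV (log2 1.05, SE 0.14, limma adjusted p = 0.00763), a call kept without each array in turn (adjusted p from 0.0128 to 0.0497). The step from EV to IKK_K171E was 0.37 (95% interval 0.04 to 0.71, adjusted p = 0.239).

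Cd69 had the widest spread of the members within EV and within IKK_K171E. It read 9.60 and 10.59 in EV, 10.28 and 11.06 in IKK_K171E, and 10.27 and 10.22 in MYD88_L265P. The EV arrays alone differed by more than any pair of group means, and no comparison passed (SE 0.34, limma adjusted p from 0.452 to 0.759). In MYD88_L265P against EV the interval ran from -0.66 to 0.96, so a change of up to about that size was not detectable with these arrays. S1pr1, whose protein CD69 retains, had a log2 fold change of -0.81 in IKK_K171E against EV (adjusted p = 0.0517) and passed with the replicate numbers as a block (adjusted p = 0.0377).

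Markers of monocytes, macrophages and dendritic cells, which also express Cd40, Cd80 and Cd86, were read on the same arrays. The mean log2 signal of 9 monocyte and macrophage markers was 8.67 and 8.86 in EV, 9.36 and 9.07 in IKK_K171E, and 8.77 and 8.57 in MYD88_L265P. It was highest in IKK_K171E, the group in which Cd40 and Cd80 were highest. Cd86 was not highest there, with a mean of 11.11 in IKK_K171E, 11.47 in EV and 10.15 in MYD88_L265P. In IKK_K171E against EV 1 of the 9 rose, Csf1r (1.22, limma adjusted p = 0.0383), and 1 fell, Adgre1 (-1.17, adjusted p = 0.0361). Over all features 0.956% were called higher and 0.413% lower. Lyz2 had a log2 fold change of 1.41 (limma adjusted p = 0.0501). With the replicate block 3 of the 9 rose, as did 462 of 21542 features. Cd68 (0.77), Mrc1 (0.76), Fcgr1 (0.53) and Itgam (0.47) missed the threshold, with both IKK_K171E arrays above both EV arrays, as on 17.6% of all features. Of the 9, 7 had an unadjusted limma p under 0.05, Adgre1 among them, beside 3675 of 21542 features. The list's median was 0.53, against -0.04 over all features. The call of Csf1r was lost without either IKK_K171E or either MYD88_L265P array. That of Adgre1 in IKK_K171E against EV was also lost in some fits that left out an array. Over all 6 such fits its log2 fold change ran from -1.26 to -1.07. Cd14 and Cd163 lay between 6.51 and 7.36 on all arrays, with differences of 0.07 and -0.06; the table holds no detection call to say whether that is background. Of 9 dendritic cell markers, 2 rose in IKK_K171E against EV, Flt3 (0.75) and Itgax (0.68), beside 0.956% of all features. The other 7 had differences from -0.22 (Cd209a) and -0.21 (Ccr9) to 0.16 (Clec9a). Both calls were lost without EV replicate 2, without IKK_K171E replicate 1 and without either MYD88_L265P array. Their mean signal was 7.93 and 7.93 in EV, 8.09 and 8.05 in IKK_K171E, and 7.81 and 7.82 in MYD88_L265P. In MYD88_L265P against EV Flt3 (-0.88), Zbtb46 (-0.56) and Adgre1 (-1.78) fell and Ccr9 (1.49) rose, where 7.33% of all features were called lower and 9.32% higher. The part of such cells in the values of Cd40, Cd80 and Cd86 was not tested.

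**Figure D3:**
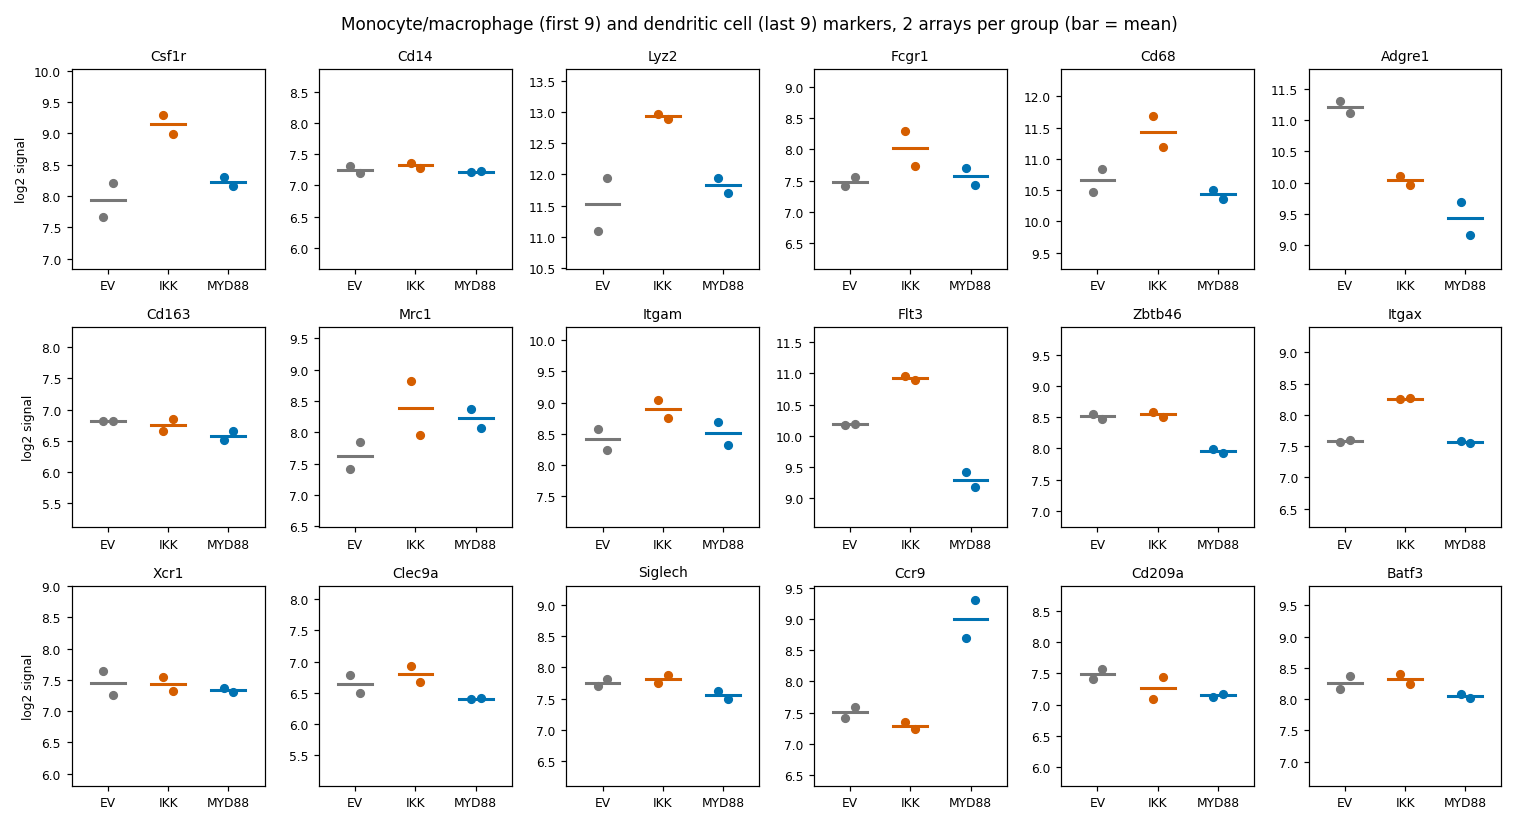
Log2 signal (vertical axis) of 9 monocyte and macrophage markers and 9 dendritic cell markers in EV, IKK_K171E and MYD88_L265P; points are the 2 arrays of a group and bars their mean. Csf1r, Flt3 and Itgax are higher in IKK_K171E than in EV, Adgre1 is lower, and Cd14 and Cd163 stay between 6.51 and 7.36.

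Markers of plasma cells and of other blood cells were read beside the falls in MYD88_L265P. Of 6 plasma cell markers 3 rose against EV: Prdm1 (2.47), Jchain (2.22) and Xbp1 (1.26), where 9.32% of all features were called higher. Irf4 (0.83) missed the threshold in the main fit. It passed with the replicate block (limma adjusted p = 0.0400) and with a common median (adjusted p = 0.0491). Sdc1 and Tnfrsf17 each had -0.12. Without either MYD88_L265P array 1 of the 6 was called, and Jchain was not called under quantile normalization (adjusted p = 0.0590). None of the 6 was called in IKK_K171E against EV by limma (0 of 6, with 0 at an unadjusted p under 0.05). Of 5 genes listed as T cell markers 4 fell in MYD88_L265P against EV, from -0.37 (Cd4) to -0.69 (Cd2), where 7.33% of all features were called lower. Cd2 read between 11.27 and 12.12 over all arrays. In IKK_K171E against EV it had -0.57, while the other genes of the list had from 0.004 (Cd4) to 0.46 (Cd3g). Whether Cd2 reports T cells in these samples was not tested. All 4 calls were lost without EV replicate 2 and without either MYD88_L265P array, and 2 were left without EV replicate 1, under quantile normalization and with a common median. The NK cell list had 1 of 6 lower (Klrd1, -1.16) and the neutrophil list 1 of 6 (Ly6g, -0.49), both lost without either MYD88_L265P array. Whether these shifts bear on the members was not tested.

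Genes around the members were counted in 5 lists with 69 tested genes, in which 4 rose and 17 fell in MYD88_L265P against EV. In IKK_K171E against EV 4 rose and 2 fell, and in the direct comparison 1 was higher and 12 lower in MYD88_L265P. The background shares of these fits are those given above. The 17 falls numbered 11 without EV replicate 2 and, with MYD88_L265P replicate 1 or 2 left out, 7 or 2, while lower calls over all features went from 1579 to 493, 146 and 49. The 4 rises against EV became 1, 1 and 0 in those fits. In IKK_K171E against EV none of the 4 rises was kept without EV replicate 2, without IKK_K171E replicate 1 or without either MYD88_L265P array. The 12 lower genes of the direct comparison became 1 when either IKK_K171E array was left out, 2 when MYD88_L265P replicate 1 was and 1 when MYD88_L265P replicate 2 was.

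Of 13 tested signalling genes downstream of CD40, 4 fell in MYD88_L265P against EV, beside 7.33% of all features, and 1 rose, beside 9.32%. Traf5 (-0.67) and Traf1 (-0.62), adaptors of TNF receptors, fell furthest, and Birc2, a ubiquitin ligase bound by TRAF2, fell by 0.60. Tnfaip3, the feedback inhibitor A20, rose in both constructs against EV, by 0.53 in MYD88_L265P and by 1.02 in IKK_K171E, where it was the 1 gene of the list called. Each of these Tnfaip3 calls was lost in 4 of the 6 fits that left out an array. Its log2 fold changes there ran from 0.44 to 0.63 in MYD88_L265P and from 0.84 to 1.20 in IKK_K171E. The rise of Tnfaip3 in MYD88_L265P was not called under quantile normalization. Birc2 (-0.86) and Traf1 (-0.77) were lower in MYD88_L265P than in IKK_K171E, as was Nfkb2 (-0.65), the precursor of the p52 subunit. The list's median was -0.16 in MYD88_L265P and 0.14 in IKK_K171E against EV.

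A list of 17 further ligands and receptors held B7 and CD28 family genes and genes of other families, such as Cd200 and Tnfrsf14. Of these 17, 2 fell in MYD88_L265P against EV, beside 7.33% of all features. They were Cd200 (-0.96), an inhibitory ligand, and Btla (-0.90), an inhibitory receptor of B and T cells. Both were also lower than in IKK_K171E (-0.82 and -0.62), beside 0.877% of all features. In IKK_K171E against EV 0 of the 17 were called, beside 1.37% of all features. Among 11 costimulatory genes of the TNF family, 3 fell in MYD88_L265P against EV, beside 7.33% of all features. They were Tnfrsf18 (-0.93), the receptor GITR, Cd27 (-0.66) and Tnfrsf9 (-0.39), an activation receptor of T cells. Tnfsf4, the OX40 ligand of antigen-presenting cells, read 8.32 and 8.34 in IKK_K171E against 7.60 and 7.43 in EV. Its difference of 0.81 missed the threshold (adjusted p = 0.0574) and passed with the replicate block (adjusted p = 0.0331), and Tnfsf4 had -1.11 in MYD88_L265P against IKK_K171E (adjusted p = 0.0213). Tnfrsf9 was the other gene of the list called there (-0.51), beside 0.877% of all features called lower.

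The 10 other SLAM family genes and adaptors did not share the size of the fall of Slamf1. In MYD88_L265P against EV Cd84 (-0.51) and Slamf6 (-0.46), both self-binding receptors, fell. There Sh2d1b1 (0.65), an adaptor of the family, and Cd244a (0.56), a receptor of CD48, rose. Over all features 7.33% were called lower and 9.32% higher in that comparison. Slamf8 was the 1 gene of the list that rose in IKK_K171E against EV (0.62), beside 0.956% of all features. That call was lost in all 6 fits that left out an array. In MYD88_L265P against IKK_K171E Slamf8 (-0.78) and Slamf6 (-0.77) were lower and Cd244a (0.75) was higher, beside 0.877% and 0.873% of all features. In MYD88_L265P against EV, Sh2d1b1 was not called under quantile normalization (limma adjusted p = 0.0559), nor Slamf6 with a common median (adjusted p = 0.0682). Both of these calls were also lost in all 6 fits that left out an array. Their log2 fold changes there ran from 0.415 to 0.880 for Sh2d1b1 and from -0.615 to -0.307 for Slamf6.

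Of 18 other activation surface genes, 6 fell and 1 rose in MYD88_L265P against EV, beside 7.33% and 9.32% of all features. Cd72, an inhibitory coreceptor, and Il4ra, the interleukin-4 receptor chain, each fell by 1.37, and Tfrc, the transferrin receptor of dividing cells, rose by 1.68. In IKK_K171E against EV Tfrc (1.28) and Fas (0.58) rose, and Cd72 (-0.69) and Adgre5 (-0.65) fell, beside 0.956% and 0.413% of all features. The call of Fas was lost without each of the 6 arrays in turn, and that of Cd72 with arrays set to a common median (adjusted p = 0.0507) or quantile-normalized (adjusted p = 0.0554). Fas, the death receptor, fell in MYD88_L265P against EV (-0.76) and had -1.34 against IKK_K171E, where Cd72 had -0.68 and was not called with a common median (adjusted p = 0.0572). With the replicate block 9 of the 18 fell and 2 rose in MYD88_L265P against EV, and 6 in place of 3 were lower than in IKK_K171E. Of 21542 features that block called 1780 lower and 2348 higher against EV, and 241 lower than in IKK_K171E.

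**Figure D4:**
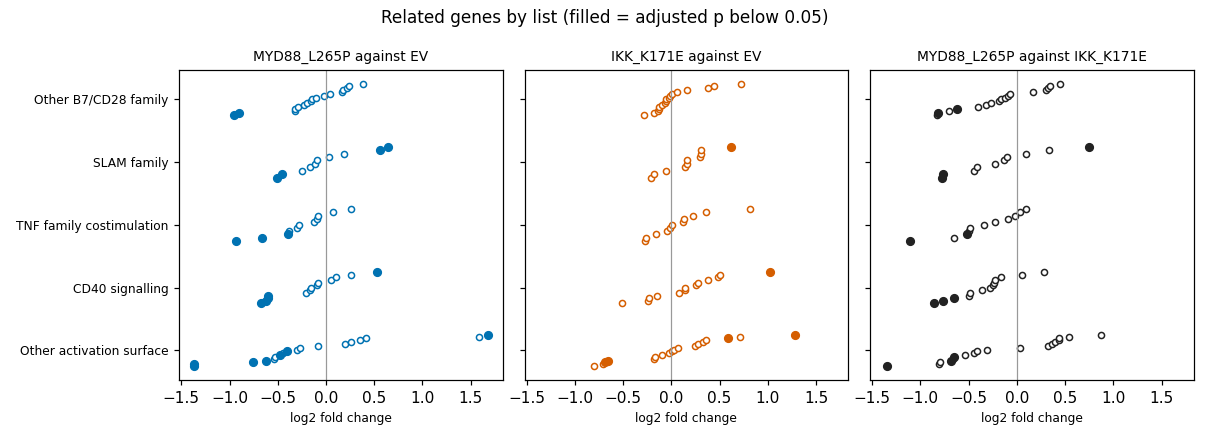
Log2 fold change (horizontal axis) of 69 related genes in 5 lists, 1 point per gene, in the 3 comparisons; filled points have a limma adjusted p below 0.05. Filled points lie mostly below 0 in MYD88_L265P against EV (17 of 21) and in the direct comparison (12 of 13).

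The genes most like each called member were those with the smallest root mean square difference between mean-centred log2 profiles over the 6 arrays. Cd300a (0.112), Anxa3 and Dram1 were nearest to Cd40, all with log2 fold changes between 0.85 and 1.04 in IKK_K171E against EV. Nearest to the Cd80 features were Mcemp1 (0.132), Gbp2b and Cep162 for the first, and Plxdc2 (0.0746), Cep162 and Pid1 for the second. Cd86 lay nearest to Irf1 (0.111), Klrd1 and Spef2, and Irf1, an interferon-induced transcription factor, had -1.32 in MYD88_L265P against EV. Runx3 (0.067), Fggy and Pltp were nearest to Cd83, and Hsd17b7 (0.0647), Ap3s1 and Cenps to Cd44. Slamf1 lay nearest to Bhlhe40 (0.129), Marcks and Cd300lf. The nearest to Icosl were Lta (0.136) and Ltb, the lymphotoxin genes, and Egr2. Correlations of these pairs over the 6 arrays ran from 0.959 to 0.998, over points that share libraries. The genes were picked for likeness on the same arrays, so high correlations follow from the selection.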

How the data were processed

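Gene expression was measured on 6 Affymetrix mouse ST 1.0 arrays of sorted, retrovirally transduced B cells, 2 per group. The deposited values are log2 signals per feature, processed by the authors with oligo and limma per the submitters' processing notes; versions, background correction, normalization and genome build are not given in the sources used here. The table holds 24743 features from 2.55 to 14.52, with array medians from 8.03 to 8.13 and no detection calls. Features with exactly 1 symbol (21542) were tested; 1522 had several and 1679 none. Group means were fitted to all 6 arrays with limma 3.58.1 (R 4.3.3), with 3 degrees of freedom from residuals and 4.17 from the prior. Tests are two-sided and p-values adjusted by Benjamini-Hochberg over all features of a comparison, and called below 0.05. Genes on lists were represented by their brightest feature; some listed genes were not analysed here. The named genes were all members, the largest called genes of each list (up to 2 per direction) and the 3 nearest profiles. The other genes of a list named with values, such as Birc2, S1pr1, Lyz2 and Tnfsf4, were chosen after their values were seen. Members and lists were chosen with earlier results of these data known. The main fit had no block. Differences between replicates 1 and 2, numbered after the descriptions, correlated between groups at 0.211 (EV and IKK_K171E), 0.105 (EV and MYD88_L265P) and 0.144 (IKK_K171E and MYD88_L265P). The titles number the arrays otherwise, and that numbering was not checked in this way. Whether the arrays are paired is therefore not settled. A block by the description numbers was fitted as an alternative and is given where it changes a call or count reported for the members and lists. The procedure was tested on simulated data. There it called 76.1%, 80.6% and 88.1% of 2-fold changes, for MYD88_L265P against EV, IKK_K171E against EV and the direct comparison. Of 1.5-fold changes it called 23.9%, 19.4% and 31.3%, so most changes of that size were missed in the simulation. Alternatives covered normalization, blocks, the variance model, array weights, features and arrays.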

Additional observations from a re-analysis of the deposited data

How the results depend on the processing

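Counts of member features called were 5 in MYD88_L265P against EV, 3 in IKK_K171E against EV and 4 in the direct comparison. They ran from 1 to 5, from 0 to 3 and from 0 to 6 when each array was left out in turn. Fitting only the arrays of the groups compared gave 1 in IKK_K171E against EV, and the number of the titles as a block, where EV shares 1 of its numbers with the other groups, gave 9 in the direct comparison. With the replicate block by description the counts were 5, 3 and 5, and Icosl in the direct comparison (adjusted p = 0.0211) was the 1 member whose call changed. Called members kept their direction in all 16 alternatives. Directions turned in these uncalled values. Cd80 in MYD88_L265P against EV became -0.025 on the first feature under quantile normalization, and on the second 0.046 with a common median and 0.10 with the title block. The title block also gave -0.17 for Cd69 in MYD88_L265P against EV and 0.014 for Cd86, -0.10 for Icosl and -0.12 for Cd274 in IKK_K171E against EV. Leaving out an array gave ranges across 0 against EV in MYD88_L265P of -0.28 to 0.11 for Cd40, -0.038 to 0.24 and -0.15 to 0.077 for Cd80, -0.35 to 0.64 for Cd69 and -0.64 to 0.059 for Cd274. In IKK_K171E they were -0.20 to 0.45 for Icosl and -0.16 to 0.54 for Cd274. The cause was not tested. Over all features, 295 were called in IKK_K171E against EV, and 626 with the replicate block, 609 with the title block, 487 with a trended and robust variance, 123 with array weights, 131 with all features of the table and 51 from the arrays of those groups. The 377 of the direct comparison became 1251 with the title block and 592 from the arrays of those groups, and the share higher moved from 49.9% to 66.2% with a common median. Signal over background could not be assessed, and 2 arrays per group limit every value.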

Other observations

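Replicate spread of the members differed between groups. The median SD of the 11 features was 0.239 in EV, 0.151 in IKK_K171E and 0.0568 in MYD88_L265P, where the median over all features was 0.0819, 0.0879 and 0.0629. In EV 9 of the 11 features lay above that median, in IKK_K171E 9 and in MYD88_L265P 4. Cd69 had the widest spread in EV (SD 0.70), followed by Cd274 (0.49), Cd86 (0.47) and Icosl (0.46). Cd44 and Slamf1, by contrast, had SDs of 0.04 and 0.03 in EV and of 0.30 and 0.27 in MYD88_L265P. Differences in spread between groups of 2 arrays were not tested.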
